A study of Mus musculus with 4 samples.

Results

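The small leucine-rich proteoglycans are secreted proteins of the extracellular matrix, and 10 of their genes (Bgn, Dcn, Aspn, Fmod, Lum, Prelp, Kera, Omd, Ogn and Epyc) were followed in LLC tumors, grafts of the Lewis lung carcinoma line in C57BL/6 mice. They are 10 of the 47729 genes measured. The family was selected on measured values, the RPM of these pools in this same comparison, so its own differences between the groups are given as descriptions, with no p-value. LLC-Chem tumors came from LLC cells transfected with a pEFIN plasmid for a bioactive form of murine chemerin, an attractant and signaling protein, and LLC tumors came from cells without it. All tumors were grafted under the skin of the back in syngeneic animals, were taken on day 5 and were combined in pools of 3, which left 2 pools per group. The labels give neither the age nor the sex of the mice, and the study's text gives an age range only for its mice in general. The study's text describes clones kept after antibiotic selection, so a difference between the groups can also be a difference between clones, and these cannot be told apart. It calls the control cells both wild type and transfected with an empty vector.

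Expression is given in RPM, reads scaled to 1000000 per pool. The pools held 28470000 to 33990000 reads. A gene at 3 reads or fewer is treated as at the floor, and 3 reads are worth 0.0883 to 0.105 RPM (counting error only). Nothing in the labels says that the pools of a group are separate experiments, so p-values measure only the spread between these pools, and a permutation test of 2 pools against 2 cannot go below p = 0.33. Rarres2, the gene of chemerin, stood at 102.2 and 98.2 RPM in LLC and 105.9 and 105.8 RPM in LLC-Chem (limma, adjusted p = 0.541). A rise from the plasmid was thus not visible in LLC-Chem, so Rarres2 does not check the labels, and the groups rest on the labels alone. Of the exon bases of Rarres2, 33.6% lie under Lrrc61 on the opposite strand. Whether counting used strand is not given in the sources used here. The paper reports bioactive chemerin in the medium of its transfected cells, and no significant chemerin expression in the parental lines in culture. Why Rarres2 did not differ here was not tested. The samples are whole tumor tissue, in which fewer cells of a type and less RNA per cell cannot be told apart.

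Proteins of this family are built around a short run of leucine-rich repeats. Most of them bind fibrillar collagen and set the diameter and spacing of its fibrils, and several bind growth factors or their receptors once released. Class I holds biglycan (Bgn) and decorin (Dcn), which carry chondroitin or dermatan sulfate chains, and asporin (Aspn), which is named for its aspartate-rich end. Class II holds fibromodulin (Fmod), lumican (Lum), prolargin (Prelp), keratocan (Kera) and osteomodulin (Omd), most of which can carry keratan sulfate or sulfated tyrosines. Class III holds osteoglycin (Ogn) and epiphycan (Epyc). In skin and tumors they are products mainly of fibroblasts, and keratocan is best known from the transparent stroma of the cornea.

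The 250 bases upstream of the RefSeq start are shown for Bgn, the member with the widest gap downward, and for Aspn and Ogn. The latter lie in 1 cluster on chromosome 13, and their group means differed in opposite directions, but neither was called and each difference hung on single LLC pools. The log2 difference was 0.10 for Aspn and -1.32 for Ogn without LLC pool 1, and 1.30 and 0.24 without LLC pool 2. Sequences are from RefSeq on GRCm38.p6, plus strand, 5′ to 3′, and capitals mark matches to TATAAA or GGGCGG on either strand.
Bgn, chrX:73483351-73483600: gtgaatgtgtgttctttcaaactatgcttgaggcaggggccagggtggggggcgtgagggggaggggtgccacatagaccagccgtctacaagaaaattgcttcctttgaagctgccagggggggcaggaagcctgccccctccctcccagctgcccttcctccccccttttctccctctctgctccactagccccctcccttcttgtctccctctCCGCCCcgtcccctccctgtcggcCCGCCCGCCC
Aspn, chr13:49544193-49544442: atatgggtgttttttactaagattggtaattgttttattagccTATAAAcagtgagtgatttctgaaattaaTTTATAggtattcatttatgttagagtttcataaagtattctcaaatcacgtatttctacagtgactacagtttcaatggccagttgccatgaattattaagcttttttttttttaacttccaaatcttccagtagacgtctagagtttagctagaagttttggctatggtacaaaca
Ogn, chr13:49607765-49608014: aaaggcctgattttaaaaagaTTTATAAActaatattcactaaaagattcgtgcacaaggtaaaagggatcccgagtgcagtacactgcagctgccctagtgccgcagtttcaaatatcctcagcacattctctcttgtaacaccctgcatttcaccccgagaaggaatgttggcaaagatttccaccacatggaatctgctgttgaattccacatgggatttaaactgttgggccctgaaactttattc

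The Bgn stretch is rich in G and C, and its capitals are 3 matches to GGGCGG, the GC box, whose first bases lie 34, 10 and 6 bases before the start; the latter pair overlap. Aspn and Ogn are rich in A and T, and each holds 2 matches to TATAAA, the letters of the TATA box. In Aspn they lie 207 and 178 bases before the start, and in Ogn, overlapping, 229 and 227 bases before it. They are matches of letters only, and no working TATA box is read from them. The whole windows, of 300 bases with 50 of them after the start, hold 63.7% G and C in Bgn, 31.0% in Aspn, 42.3% in Ogn and 41.0% in Kera, against a median of 52.7% over 32851 promoters. CpG pairs number 9 in Bgn, 3 in Aspn, 4 in Ogn and 1 in Kera, against a median of 7. Of all promoters in the table, 35.7% hold GGGCGG, 13.6% TATAAA, 7.81% TGANTCA (AP-1), 19.6% ACGTG (the hypoxia response core) and 72.3% CANNTG (the E-box), on either strand. The Kera window holds none of these 5 sets of letters. It lies inside the first exon that GENCODE gives for Kera and its letters are not printed. The table matched 8 of the 10 genes, and Dcn and Lum are named only.

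Biglycan had lower and keratocan higher RPM in both LLC-Chem pools, with the widest gaps of the tested members, while decorin and lumican were higher in both LLC-Chem pools but varied between pools. Of the 10 genes, 8 had a mean of at least 1 RPM and entered the fit, Kera only through its LLC-Chem values. In the fit over all 13694 genes (limma with Benjamini-Hochberg adjustment, called at an adjusted p under 0.05), 9.54% of genes were called higher and 13.5% lower, and 1 member fell in each class (Kera and Bgn). The pools did not overlap, LLC-Chem above LLC, for 4 of the 8 (Dcn, Lum, Kera and Aspn), against 33.1% of all genes tested, and LLC-Chem below LLC for 1 (Bgn), against 39.3%. Values of this comparison chose the family, so these counts are no test of it and nothing is read from them.

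Bgn (ENSMUSG00000031375, GRCm38 chrX:73483602-73495933) is a collagen-binding proteoglycan that can also engage Toll-like receptors when it is released from the matrix. Its level was 607.6 and 601.4 RPM in LLC against 157.3 and 146.3 RPM in LLC-Chem. Both LLC-Chem pools lay far below both LLC pools, and pools of a group were nearly alike. Mean levels were 604.5 ± 4.42 and 151.8 ± 7.77 RPM (SD, n = 2 each), so that Bgn was 3.98-fold lower in LLC-Chem, with a difference of -1.99 (SE 0.10) on the log2(RPM + 0.5) scale. With each pool left out in turn the difference stayed between -2.04 and -1.94.

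Dcn (ENSMUSG00000019929, chr10:97479609-97518143), the founding member of the family and a binder of TGF-β and of receptor tyrosine kinases, measured 849.9 and 1286.3 RPM in LLC and 2085.0 and 1583.4 RPM in LLC-Chem. Both LLC-Chem pools were above both LLC pools, but the gap between the nearest pools was smaller than the gap between the LLC pools. Its means were 1068.1 ± 308.6 RPM and 1834.2 ± 354.6 RPM (SD, n = 2 each), a 1.72-fold difference, or 0.80 (SE 0.26) on the log2(RPM + 0.5) scale, which was not called. Leaving out 1 pool moved it between 0.50 and 1.10. Between these 2 members of class I, the ratio of Bgn to Dcn in RPM was 0.715 and 0.468 in the LLC pools and 0.0754 and 0.0924 in the LLC-Chem pools.

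Aspn (ENSMUSG00000021388, chr13:49544443-49567565), the class I member without a glycosaminoglycan chain, measured 18.9 and 44.2 RPM in LLC and 49.3 and 45.7 RPM in LLC-Chem. LLC pool 1 was low and LLC pool 2 close to the LLC-Chem pools. The log2 difference of 0.70 (SE 0.38), not called, was 0.10 without LLC pool 1 and 1.30 without LLC pool 2, so that it rested on the first LLC pool.

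Lum (ENSMUSG00000036446, chr10:97565128-97572703), a keratan sulfate proteoglycan of collagen fibrils in skin and cornea, measured 218.0 and 386.8 RPM in LLC and 728.4 and 465.5 RPM in LLC-Chem. The pools did not overlap, although the gap between the LLC-Chem pools was wider than the gap between the nearest pools of the groups. Its means were 302.4 ± 119.4 RPM and 597.0 ± 185.9 RPM (SD, n = 2 each), a 1.97-fold difference and 1.00 (SE 0.33) on the log2 scale, which was not called and ranged from 0.59 to 1.42 with 1 pool left out. The ratio of Lum to Dcn, in RPM, stayed between 0.256 and 0.349 in all 4 pools.

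Kera (ENSMUSG00000019932, chr10:97606879-97613692), the corneal keratan sulfate proteoglycan, measured 0.4 RPM in each LLC pool against 15.1 and 6.75 RPM in LLC-Chem. In recovered reads these are 12 and 11 against 514 and 226. Both LLC-Chem pools were far above LLC, and they differed from each other 2.24-fold. The means were 0.4 and 10.9 ± 5.94 RPM (SD, n = 2), a 27.4-fold difference, and the log2(RPM + 0.5) difference was 3.56 (SE 0.39). That value depends on the pseudocount, being 4.35 with 0.1 and 3.0 with 1, and was 3.01 without LLC-Chem pool 1 and 4.12 without LLC-Chem pool 2. Of the 4 corneal keratocyte markers outside the family, Aldh3a1 and Ptgds were at 3 reads or fewer in every pool, Aldh1a1 was called lower and Cd34 was not called.

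Prelp (ENSMUSG00000041577, chr1:133910304-133921414), which links basement membranes to the matrix beneath, measured 93.2 and 180.1 RPM in LLC and 96.0 and 99.5 RPM in LLC-Chem. The groups overlapped. The log2 difference was -0.41 (SE 0.30), and it changed from -0.88 without LLC pool 1 to 0.07 without LLC pool 2. Of its exon bases, 9.7% lie under Gm15851 on the opposite strand, and whether counting used strand is not given in the sources used here.

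Fmod (ENSMUSG00000041559, chr1:134037254-134048277), a collagen fibril binder typical of tendon and cartilage, was scarce, at 1.10 and 0.75 RPM in LLC and 0.45 and 0.25 RPM in LLC-Chem (33, 21, 15 and 8 reads). Both LLC-Chem values were below both LLC values, but its mean was under 1 RPM and it was not tested. Omd (ENSMUSG00000048368, chr13:49582462-49592822), a keratan sulfate proteoglycan of bone, measured 0.95 and 2.40 RPM in LLC and 1.15 and 0.75 RPM in LLC-Chem, and the groups overlapped (log2 difference -0.51, SE 0.39).

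Ogn (ENSMUSG00000021390, chr13:49608046-49624501), the class III member also called mimecan, measured 48.3 and 143.3 RPM in LLC and 70.9 and 46.0 RPM in LLC-Chem. The groups overlapped, and the LLC pools differed 2.97-fold, the widest gap between LLC pools among the 8 tested members. Its log2 difference of -0.54 (SE 0.51) was -1.32 without LLC pool 1 and 0.24 without LLC pool 2. Epyc (ENSMUSG00000019936, chr10:97644068-97682454), the cartilage member of class III, was at 3 and 4 reads in LLC and 6 and 3 reads in LLC-Chem, so that no fold is given. Of its exon bases, 40.6% lie under Gm10754 on the opposite strand.

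**Figure D1:**
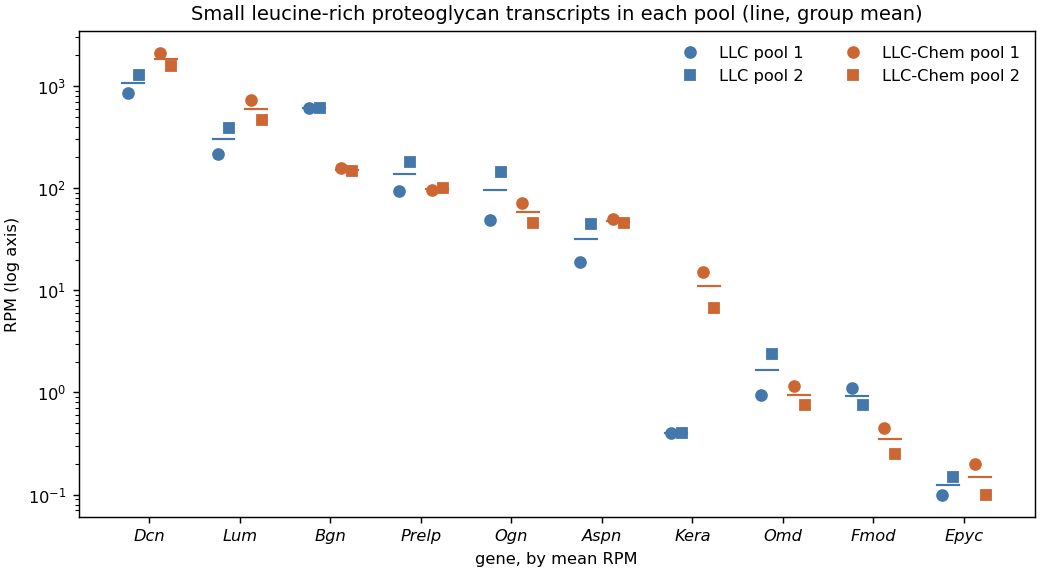
RPM of the 10 genes on a log axis, in order of mean level, for the LLC pools (blue) and the LLC-Chem pools (orange), with circles for pool 1, squares for pool 2 and a line at each group mean. Bgn sits at 607.6 and 601.4 RPM in LLC and at 157.3 and 146.3 RPM in LLC-Chem, while Kera sits at 0.4 RPM in both LLC pools and at 15.1 and 6.75 RPM in LLC-Chem.

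Levels of different genes were compared per kilobase (kb) of merged exons. In LLC the order was Dcn at 183.0 ± 52.9 RPM per kb, Lum at 123.5 ± 48.8 and Bgn at 99.1 ± 0.725, then Prelp at 37.8 ± 17.0, Ogn at 37.3 ± 26.2 and Aspn at 13.4 ± 7.58 (SD, n = 2 each). Omd, Fmod, Kera and Epyc followed at 0.744 RPM per kb or less. The ranges of Dcn and Lum overlapped across the LLC pools, as did those of Lum and Bgn, and of Prelp and Ogn, whereas the lower Ogn and the upper Aspn value met at 18.8 RPM per kb. Within single pools, Dcn was first in both, and Bgn was second in LLC pool 1 and the third in LLC pool 2.

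In LLC-Chem, Dcn was at 314.2 ± 60.7 RPM per kb and Lum at 243.9 ± 75.9 RPM per kb (SD, n = 2 each), and their ranges again overlapped. The next group lay close together, with Prelp at 27.0 ± 0.694, Bgn at 24.9 ± 1.27, Ogn at 22.8 ± 6.84 and Aspn at 20.2 ± 1.08 RPM per kb. Ogn overlapped each of the other three in range. This order of Bgn depends on the length used: per kb of the longest coding transcript it was at 249.9 in LLC, above Lum at 123.5 in both pools, and at 62.7 in LLC-Chem, apart from Prelp at 27.0 RPM per kb. Kera, at 4.80 ± 2.60 RPM per kb, stood above Omd (0.422), Fmod (0.106) and Epyc (0.0585), whereas in LLC it was at 0.175 RPM per kb, below Fmod.

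Seen as a share of the family's RPM per kb, Bgn made up 25.7% and 16.4% in the LLC pools and 3.38% and 4.33% in the LLC-Chem pools. Dcn held 37.5% and 36.5% against 46.8% and 49.0%, and Lum held 23.0% and 26.2% against 39.0% and 34.3%. The makeup of the family was thus tilted toward Dcn and Lum in both LLC-Chem pools, and Bgn was among the minor members there. Kera reached 0.870% and 0.534% in LLC-Chem. Summed over the 10 genes, the RPM were 1838.6 and 2645.7 in LLC and 3203.8 and 2394.4 in LLC-Chem, which overlap. The shares depend on the length used, since per kb of the longest coding transcript Dcn held 55.1% and 57.9% in LLC and 72.7% and 73.8% in LLC-Chem, and Bgn 28.6% and 19.7% against 3.99% and 4.96%. With either length both shares had the same direction.

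**Figure D2:**
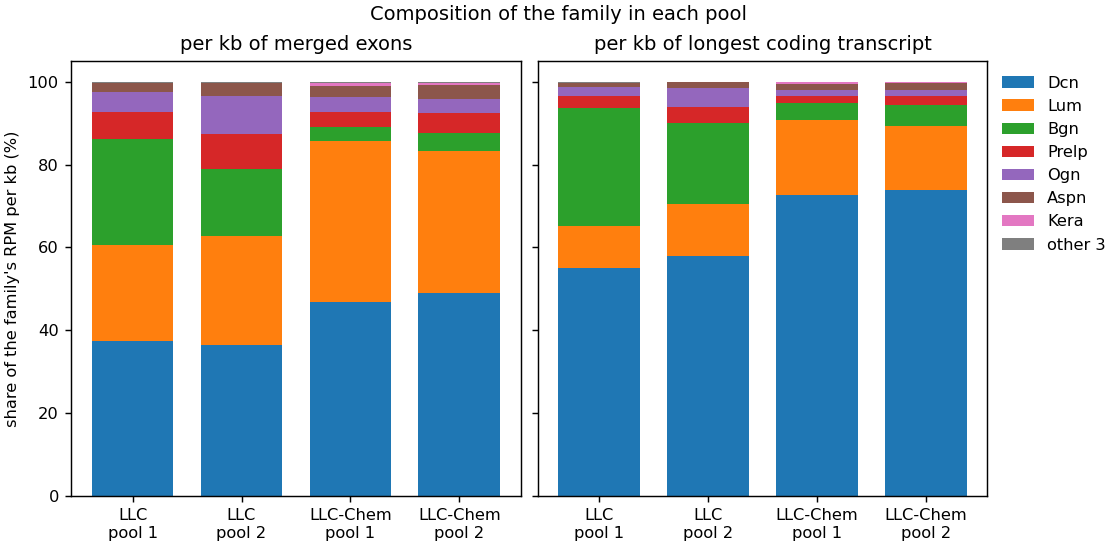
Share of each gene in the family's summed RPM per kb (%), for each of the 4 pools, with length taken as merged exons (left) or as the longest coding transcript (right). By merged exons the Bgn band is 25.7% and 16.4% in the LLC pools and 3.38% and 4.33% in the LLC-Chem pools, and the Dcn and Lum bands are wider in both LLC-Chem pools.

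The genes lie in clusters. Values of this comparison chose the family, so its values in chromosomal order are a description and no test. Dcn, Lum, Kera and Epyc follow one another on the plus strand of chromosome 10 within 203 kb (97479609 to 97682454). The first 3 had higher RPM in both LLC-Chem pools, as did 33.1% of all genes tested, and Epyc was too scarce to place. Of the genes in this cluster only Kera was called, and it entered the fit only through its LLC-Chem values. On chromosome 13, Ecm2, Aspn, Omd and Ogn span 120 kb, where Aspn was the only gene higher in both LLC-Chem pools. Optc, Prelp and Fmod span 151 kb of chromosome 1, and Bgn is alone on chromosome X.

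Genes that flank the clusters, which are not members, were tested in the same fit. On chromosome 10 the flanking genes lie far out: Epyc ends at 97682454 and Atp2b1 starts at 98914406, and on the other side Btg1 ends at 96622809 and the cluster starts at 97479609 (GRCm38). Atp2b1, a plasma membrane calcium pump, rose from 187.1 and 197.8 to 346.2 and 391.4 RPM (log2 difference 0.93, adjusted p = 0.0126 from limma), whereas Btg1 on the other side had a log2 difference of 0.09 (limma, adjusted p = 0.731) and Eea1 one of 0.43 (limma, adjusted p = 0.111). The genes directly between Epyc and Atp2b1, Ccer1 and C030005K15Rik, are listed at 0. On chromosome 13, Cenpp, a centromere protein gene that runs opposite to Aspn, Omd and Ogn, fell by 0.74 in log2 RPM (limma, adjusted p = 0.0398), and Iars, a tRNA synthetase gene, fell by 0.47 (limma, adjusted p = 0.0266). Around Bgn, the adjacent Atp2b3 was too scarce to test. Dusp9, 1 gene further out, a MAP kinase phosphatase gene, fell by 1.30 in log2 RPM (limma, adjusted p = 0.0143), while Haus7 on the other side had a log2 difference of -0.36 (limma, adjusted p = 0.0851) and Pnck, beyond Dusp9, one of 0.57 (limma, adjusted p = 0.108). Nol8, directly beside Ogn, had a log2 difference of -0.40 (limma, adjusted p = 0.0916). Around Optc, Prelp and Fmod, the adjacent genes were Btg2, which fell by 1.32 in log2 RPM (limma, adjusted p = 0.0163), and Atp2b4, with a log2 difference of -0.64 (limma, adjusted p = 0.263), and Lax1, 1 gene further out, fell by 1.87 (limma, adjusted p = 0.0144).

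**Figure D3:**
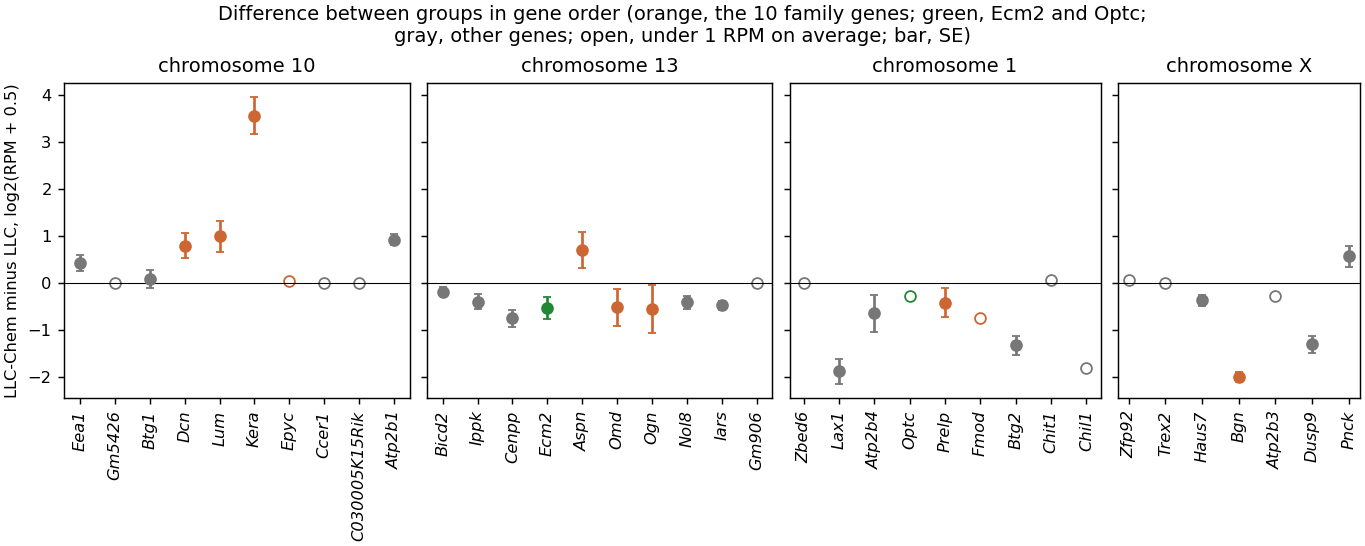
Difference LLC-Chem minus LLC on the log2(RPM + 0.5) scale for the family genes and the genes beside them in chromosomal order, 1 panel per chromosome, with the 10 members in orange, Ecm2 and Optc in green, other genes in gray, bars for the standard error and open circles for genes under 1 RPM on average. Dcn (0.80), Lum (1.00) and Kera (3.56) stand next to each other above 0, and Bgn (-1.99) stands below Haus7 and Dusp9.

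Pools of the same group differed in a way that most members shared. LLC pool 2 was above LLC pool 1 for 6 of the 8 tested members, from 1.51-fold for Dcn through 1.77-fold for Lum, 1.93-fold for Prelp and 2.33-fold for Aspn to 2.97-fold for Ogn, while 41.7% of all genes tested were higher in that pool. Bgn, at 0.990 of its level in LLC pool 1, and Kera were the exceptions. In LLC-Chem, pool 1 was above pool 2 for 7 of the 8, from 1.08-fold for Bgn and Aspn to 2.24-fold for Kera, against 51.6% of all genes tested, and Prelp was the exception.

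Fibroblast markers moved with these pool differences. Of 10 such markers, 9 were higher in LLC pool 2 than in LLC pool 1 and 10 in LLC-Chem pool 1 than in LLC-Chem pool 2. The difference between the LLC-Chem pools was not particular to fibroblast markers, since the 6 endothelial, 6 mural, 5 tested leukocyte and 3 tested adipocyte markers were also each higher in LLC-Chem pool 1. The summed RPM of the fibroblast markers were 23746.1 and 44939.9 in LLC and 31657.6 and 29033.9 in LLC-Chem, or without the collagens 1560.3 and 2507.6 against 2045.4 and 1698.4, which overlap. Between the groups, 1 fibroblast marker (Pdgfra) was called higher and 4 (Pdgfrb, Pi16, Col1a1 and Col1a2) lower by limma, against 0 higher and 3 lower by edgeR and 2 higher and 5 lower by DESeq2. Their part in the family's differences was not tested. Dpt, dermatopontin, a fibroblast matrix protein, was itself at 414.4 and 722.6 RPM in LLC and 1096.8 and 973.4 RPM in LLC-Chem (log2 difference 0.92, not called), unlike the 6 markers of the list whose LLC-Chem pools both lay below LLC. Set against Dpt, Dcn was at 2.05 and 1.78 in the LLC pools and 1.90 and 1.63 in the LLC-Chem pools (ratio of RPM), and Lum at 0.526 and 0.535 against 0.664 and 0.478. These ratios overlapped between the groups. Bgn to Dpt was 1.47 and 0.832 in LLC against 0.143 and 0.15 in LLC-Chem, with no overlap. Against Col1a1, Bgn was at 0.105 and 0.0620 in LLC and 0.0540 and 0.0614 in LLC-Chem, and Dcn at 0.147 and 0.133 against 0.716 and 0.665. The pairs of genes in all ratios were chosen after their values were seen.

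Markers of other cells that could hold these transcripts were also measured. Each of the 6 mural cell and 6 endothelial markers was tested, and 4 and 5 of them, in that order, were called lower in LLC-Chem. The endothelial sum was 227.6 and 195.7 RPM in LLC and 65.3 and 39.9 RPM in LLC-Chem, and the mural sum was 119.7 and 75.8 RPM against 42.7 and 29.1 RPM. Of 8 leukocyte markers, 5 were tested and 4 called lower (sums 772.6 and 1049.6 RPM against 504.7 and 275.6 RPM). Whether Bgn moved with any of these cells was not tested. For tendon and cartilage, 3 of 8 markers were tested and 0 called by limma, edgeR or DESeq2. At an unadjusted p under 0.05 there were 0 by limma, 1 higher by edgeR and 1 lower by DESeq2. Tnmd and Matn1 were at 3 reads or fewer in every pool. For bone, 1 of 6 markers was tested, which was higher at an unadjusted p under 0.05 by limma and called by edgeR and DESeq2. Of 5 adipocyte markers, 3 were tested and 1 (Cfd) called higher. Of 5 skeletal muscle markers, 1 (Tnnt3) was tested and called higher. Of 5 keratinocyte markers, 1 was tested and 0 called by limma, edgeR or DESeq2 (1 lower at an unadjusted p under 0.05 by limma), with Krt5, Krt14, Krt1 and Lor at 3 reads or fewer throughout.

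Genes that build, process or bind these proteoglycans were taken from 9 lists of 95 genes, which were drawn up with earlier results of these data known. Of the 81 tested, 10 were called higher and 22 lower in LLC-Chem (limma, adjusted over all 13694 genes), with a median log2 difference of -0.26 against -0.04 over all genes tested and 0.15 over the 8 tested members. Over all genes tested, 9.54% were called higher and 13.5% lower. With TMM scaling, 14 related genes were called higher and 20 lower. Among 7 other leucine-rich proteins of the matrix, 4 were tested and 0 called by limma, edgeR or DESeq2, with 1 higher and 0 lower at an unadjusted p under 0.05 in each. Tsku, the most abundant of them per kb, measured 50.4 and 59.6 RPM in LLC and 42.9 and 48.0 RPM in LLC-Chem. Ecm2, the neighbor of Aspn, had a log2 difference of -0.53 (limma, adjusted p = 0.146), and Podnl1 one of 0.52 (limma, adjusted p = 0.0769). Optc, Chad and Nyx were at 0.25 RPM or less in every pool.

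Enzymes that build the sugar chains showed no common direction. Among 6 enzymes of the linker that joins a chain to its core protein, Fam20b, a xylose kinase, rose from 89.0 and 91.0 to 119.3 and 120.9 RPM (limma, adjusted p = 0.0325), and Xylt2, a xylosyltransferase that starts the linker, fell from 73.0 and 77.2 to 54.6 and 51.0 RPM (limma, adjusted p = 0.0274). B3gat3, the glucuronosyltransferase that completes the linker and the most abundant of the list per kb, had a log2 difference of 0.23 (limma, adjusted p = 0.148). For the chondroitin and dermatan sulfate chains of Bgn and Dcn, 13 of 16 enzymes were tested and 1 was called by limma, Chst7, a chondroitin sulfotransferase, which fell by 1.36 in log2 RPM (limma, adjusted p = 0.0481). Chst7 lost its call with TMM scaling (limma, adjusted p = 0.053), the replicate block (limma, adjusted p = 0.0649) and edgeR (adjusted p = 0.0703). Median-of-ratios scaling, a filter of 0.25 RPM and a pseudocount of 0.1 lost it too. It was kept with DESeq2 (adjusted p = 0.0364) and with a pseudocount of 1 (limma, adjusted p = 0.0438). In this list edgeR called 0 lower and 1 higher, and DESeq2 2 lower and 3 higher. Chpf, the most abundant of them per kb, was at 187.7 and 186.4 RPM in LLC and 194.9 and 188.0 RPM in LLC-Chem.

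For keratan sulfate, the chain of lumican and keratocan, all 7 enzymes were tested, and 1 rose and 3 fell by limma. By edgeR and by DESeq2, 2 rose and 3 fell. B3gnt7, which extends the chain, rose from 1.30 and 1.70 to 3.75 and 3.0 RPM (limma, adjusted p = 0.0431). The sulfotransferase Chst1 fell by 1.05 on the log2 scale, the galactosyltransferase B4galt4 fell by 1.03 and the sulfotransferase Chst2 fell by 0.85 (limma, adjusted p = 0.0135, 0.0301 and 0.0312). Chst5, a related sulfotransferase, had a log2 difference of 0.55 (limma, adjusted p = 0.0519). It was called higher with TMM scaling (limma, adjusted p = 0.0386), edgeR (adjusted p = 0.0397) and DESeq2 (adjusted p = 0.0156), but not with the replicate block (limma, adjusted p = 0.0983). B4galt1, a galactosyltransferase and the most abundant of the list per kb, had a log2 difference of -0.23 (limma, adjusted p = 0.137). Of 7 genes of sulfate supply and tyrosine sulfation, 3 fell, and 0 rose by limma, edgeR or DESeq2 or at an unadjusted p under 0.05. The 3 were Papss2, which makes the sulfate donor, and the tyrosine sulfotransferases Tpst2 and Tpst1, with log2 differences of -1.22, -0.73 and -0.51 (limma, adjusted p = 0.0216, 0.0178 and 0.0313). Papss1, which also makes the donor and is the most abundant of the list per kb, had a log2 difference of -0.04 (limma, adjusted p = 0.788), or 0.01 with TMM scaling and with edgeR.

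Among receptors and growth factors that bind these proteins, 14 of 15 were tested, and 2 rose and 4 fell. Egfr, a receptor that decorin binds, rose from 51.7 and 67.5 to 94.0 and 99.9 RPM (limma, adjusted p = 0.0301), and Igf1r, also a decorin receptor, rose from 63.3 and 61.7 to 92.3 and 104.1 RPM (limma, adjusted p = 0.0187). A further receptor of decorin, Met, had a log2 difference of -0.43 (limma, adjusted p = 0.10). Cd14, a co-receptor of biglycan, fell from 89.2 and 98.8 to 50.4 and 31.6 RPM (limma, adjusted p = 0.0235) and P2rx7, a purine receptor that acts with it, from 27.9 and 29.4 to 13.4 and 9.69 RPM (limma, adjusted p = 0.0150). Cd14 and P2rx7 are also typical of myeloid cells. Of the 5 tested leukocyte markers, 4 were called lower too, while the paper, counting cells by flow cytometry, reports no significant change in any leukocyte subset. Whether Cd14 and P2rx7 moved with such cells was not tested. The Toll-like receptors that biglycan engages were not called, with log2 differences of 0.14 for Tlr4 (limma, adjusted p = 0.379) and -0.85 for Tlr2 (limma, adjusted p = 0.19), whose pools overlapped. The collagen receptor subunit Itga2 fell by 1.40 in log2 RPM (limma, adjusted p = 0.0256), and its partner Itgb1, the most abundant of the list per kb, had a log2 difference of 0.19 (limma, adjusted p = 0.293).

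Among proteases that can cut these proteoglycans, listed with the procollagen cleavage enhancers Pcolce and Pcolce2, 11 of 12 genes were tested, and 2 rose and 5 fell, 1 of the 5 being Pcolce2. Mmp14, the membrane-bound collagenase and the most abundant of the list per kb, rose from 674.5 and 799.4 to 1233.5 and 1156.9 RPM (limma, adjusted p = 0.0307), and the aggrecanase Adamts4 rose from 28.6 and 26.1 to 49.1 and 64.3 RPM (limma, adjusted p = 0.0169). Mmp9, a gelatinase, fell from 89.1 and 112.1 to 19.9 and 15.2 RPM (limma, adjusted p = 0.00665). Mmp13, a collagenase, and Pcolce2, an enhancer of procollagen cleavage, fell by 1.86 and 1.25 in log2 RPM (limma, adjusted p = 0.0183 and 0.0270). The log2 difference of Bmp1, the protease that removes the propeptide of biglycan, was -0.29 (limma, adjusted p = 0.350), a gene named after its values were seen.

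Of 12 collagen chains tested, 3 rose, all of them chains of type VI, 4 fell (Col1a1, Col1a2, Col5a2 and Col12a1) and 5 were not called. Col6a1, a chain of the beaded filaments that biglycan and decorin bind, rose from 857.2 and 1142.6 to 2548.8 and 2553.2 RPM (limma, adjusted p = 0.0149), and Col6a2 and Col6a3 rose by log2 differences of 1.39 and 0.75 (limma, adjusted p = 0.0143 and 0.0248). Col1a1 and Col1a2, the chains of type I collagen, fell from 5768.4 and 9694.3 to 2911.6 and 2382.5 RPM and from 4836.4 and 8788.0 to 2578.6 and 2190.8 RPM (limma, adjusted p = 0.0334 and 0.0383). The chains of type V differed among themselves, as Col5a2 fell by 1.45 in log2 RPM (limma, adjusted p = 0.0265), while Col5a1 had a log2 difference of 0.0 (limma, adjusted p = 0.999) and Col5a3 one of -0.58 (limma, adjusted p = 0.156). Col3a1, the most abundant chain per kb, had a log2 difference of 0.49 (limma, adjusted p = 0.540), which was -0.03 without LLC pool 1. Both LLC-Chem pools lay below both LLC pools for Bgn and the type I chains, and above them for Dcn and Lum. With 2 pools per group, such a shared direction does not show that genes move together. From LLC pool 1 to LLC pool 2, Col1a1 rose 1.68-fold, Col1a2 1.82-fold, Dcn 1.51-fold and Lum 1.77-fold, whereas Bgn stayed at 0.99 of its level. All of them were higher in LLC-Chem pool 1 than in LLC-Chem pool 2.

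Among 12 other secreted proteoglycans, 7 were tested, 1 rose and 1 fell. Versican (Vcan), a large chondroitin sulfate proteoglycan, rose from 256.3 and 282.2 to 460.8 and 479.6 RPM (limma, adjusted p = 0.0141), and Prg4, lubricin, fell from 39.5 and 45.0 to 15.2 and 10.2 RPM (limma, adjusted p = 0.0129). Perlecan (Hspg2) had a log2 difference of 0.51 (limma, adjusted p = 0.0531).

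**Figure D4:**
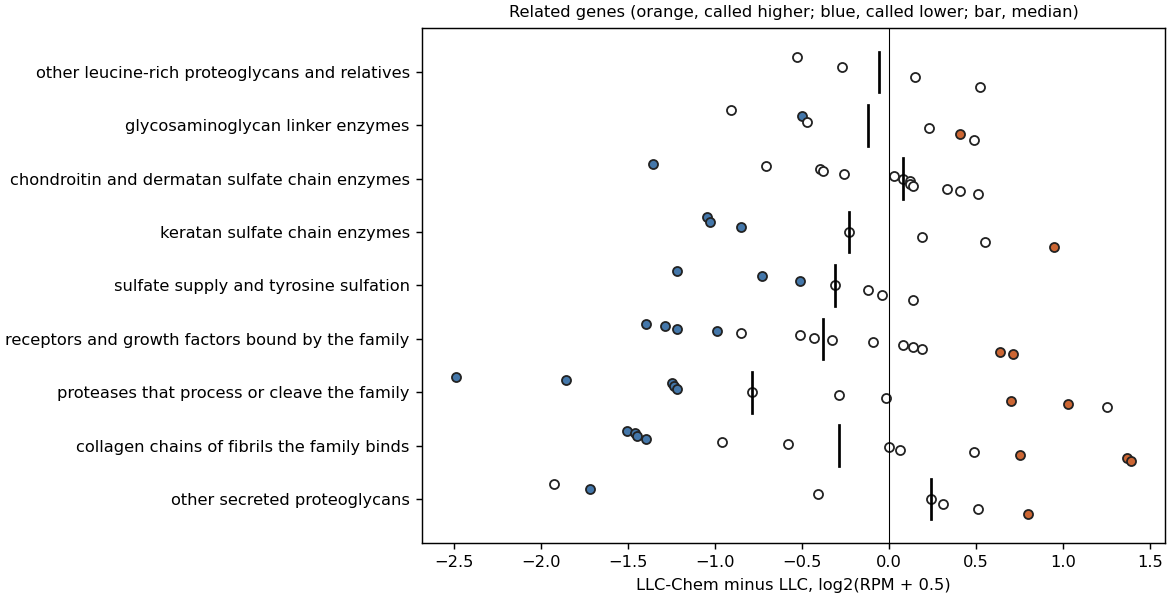
Difference LLC-Chem minus LLC on the log2(RPM + 0.5) scale for the tested genes of the 9 related lists, 1 circle per gene, filled orange where called higher and blue where called lower by limma, with a bar at each list's median. Calls lie on both sides of 0 in 6 of the 9 lists, with the type VI collagen chains at 0.75 to 1.39 and the type I chains at -1.51 and -1.46.

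With any 1 pool left out, limma called 0 of the related genes, where at an unadjusted p under 0.05 it had 9 to 18 higher and 19 to 34 lower.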

How the data were processed

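RNA of whole tumors was sequenced in 4 pools, 2 of LLC and 2 of LLC-Chem tumors. Per the study's methods and the submitters' processing notes, paired reads were aligned by the authors to GRCm38.p4 (mm10) with STAR, counted on genes of Ensembl release 84 with HTSeq and deposited as RPM, with no versions of the tools given in the sources used here. The deposited RPM were whole multiples of 0.04997 in 100% of nonzero values (within 0.02 of a step), from which a scaling to 20000000 reads, rounded up, was inferred, and the library totals were fitted from the histogram of values (within 0.001% on simulated libraries). The main test was limma 3.58.1 (R 4.3.3) on log2(RPM + 0.5), two-sided, for genes averaging 1 RPM or more, with Benjamini-Hochberg adjustment, called at an adjusted p under 0.05. Reads recovered from RPM were tested with edgeR 4.0.16 and DESeq2 1.42.0, which called 1551 and 1876 genes higher and 1600 and 2271 lower. Other alternatives were pseudocounts, filters, TMM and median-of-ratios scaling, the replicate block and leaving out each pool, and the crossed block was added after the data were seen. Fold changes of scarce genes are understated on this scale.

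Gene positions and lengths are those of GENCODE M21 (GRCm38), where 47310 identifiers (99.1%) were found. The 1 listed symbol with several identifiers is given by the most abundant one. Same-numbered pools share only a number. Members and lists were chosen with earlier results of these data known. Of each related list, up to 3 called genes with the largest difference in each direction and the most abundant gene per kb were named, and lists of up to 7 genes could be named whole. Neighboring genes, Bmp1, Met, Tlr2, Tlr4, Col5a1, Col5a3, the markers singled out and the gene pairs of the ratios were named after their values were seen.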

Additional observations from a re-analysis of the deposited data

How the results depend on the processing

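The count of genes called across the table, 1306 higher and 1848 lower, dropped most with no filter on low values, to 1 and 0 (3394 and 4003 at an unadjusted p under 0.05), and with 1 pool left out, to between 0 and 4 higher and 0 lower. In that fit a lone pool is assumed to vary like the others. The replicate block gave 549 higher and 1064 lower, with 7 related genes higher (10 without it) and 13 lower (22 without it). Same-numbered pools deviated with a correlation of -0.1405, and with the pairing crossed 1579 genes were higher and 2320 lower. Members, whose counts are descriptions, were called higher in 3 cases (Dcn, Kera and Lum) with the crossed replicate block and with DESeq2, and 0 without a filter or without any 1 pool. Members called lower were 0 in the same settings without a filter or a pool, where related genes called were 0 in each direction (18 higher and 31 lower at an unadjusted p under 0.05 without a filter). DESeq2 called 16 related genes higher. The lean of the calls toward lower was nearly lost with TMM scaling (1585 higher and 1631 lower) and edgeR (1551 and 1600). Per kb of the longest coding transcript, Bgn was at 249.9 (LLC) and 62.7 (LLC-Chem) and Dcn at 607.6 and 1043.3 RPM per kb. The log2 difference of Kera was 4.85 with edgeR and DESeq2. Some uncalled genes changed sign. Podn ran from -0.14 to 0.44 and Papss1 from -0.10 to 0.02 (each without LLC-Chem pool 1 or pool 2). Without LLC pool 1 or pool 2, Col3a1 ran from -0.03 to 1.02, Prelp from -0.88 to 0.07 and Ogn from -1.32 to 0.24. Papss1 was at 0.01 with TMM scaling and 0.01 with edgeR. Scaling moved the median of all genes by 0.045 (TMM) and 0.032 (median-of-ratios) on the log2 scale. The causes were not tested.

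With 2 pools per group the spread is poorly measured. Fmod, Omd and Epyc rest on 3 to 68 reads in each pool, and Dcn, Lum and Bgn on 4905 or more.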
